A study of Mus musculus with 6 samples.

Results

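The genes described here encode the proteins of the cytosolic ribosome, as read in whole kidney RNA of C57BL/6 (B6) and BALB/c mice. Members were the rows whose symbol starts with Rpl, Rps or Rplp and goes on as a ribosomal protein number, or is Rpsa, with the Rps6k kinases left out. This rule took 88 of 23282 rows, and it used no measured value. It also took Rps19bp1, which is named for binding the Rps19 protein and is not a ribosomal protein, so 87 rows are ribosomal protein genes or copies of them. Of the 88 members, 85 passed the filter on low values.

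There were 3 libraries from B6 kidneys and 3 from BALB/c kidneys, labelled as replicates 1 to 3 of each inbred strain. No treatment, transgene, age or sex is given in the labels used here, and nothing in them says that the mice were littermates or housed together. The labels do not say in words that each library came from a separate mouse, but the series' design text gives 3 mice per strain. The kit was QuantSeq from Lexogen, which reads the 3′ ends of polyadenylated transcripts, so a transcript gives about the same number of reads whatever its length, and levels are not divided by length.

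The ribosome is built from a small subunit, which reads the messenger RNA, and a large subunit, which joins amino acids. Each is an RNA scaffold that carries many different proteins, and most of these proteins are present in a single copy per ribosome. Their messages are among the most abundant in most cells and many start with a C and a run of pyrimidines, the 5′ TOP tract, through which mTORC1 controls their translation. The genes have left many processed pseudogenes in mammalian genomes, which can look like the true gene to a short read.

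Libraries held between 8311309 and 10416620 reads, of which the members took between 2.49% and 3.17%. The 45S ribosomal RNA row alone took between 12.7% and 15.6%. Levels are in CPM, a depth-scaled read count on the authors' scale, and a fold is the mean log2(CPM + 1) of BALB/c minus that of B6. Among markers of the labelled tissue, Kap, a kidney androgen-regulated gene, had 12010 ± 2675 CPM in B6 against 10700 ± 1244 CPM in BALB/c (SD, n = 3 each). In bulk tissue, fewer cells of a type and less RNA per cell cannot be told apart.

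The sequence around the start is shown for the 7 called members with a single start in the RefSeq promoter table (GRCm38.p6), because it is a feature that the choice of members did not use. Each line gives 30 bases before and 15 bases from the annotated start, 5′ to 3′ on the gene's strand, with a C and its run of pyrimidines at the start in capitals where it holds at least 5 bases.
Rps27 (chr3:90213634-90213678, minus strand): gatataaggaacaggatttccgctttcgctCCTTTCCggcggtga
Rps27rt (chr9:114982725-114982769, minus strand): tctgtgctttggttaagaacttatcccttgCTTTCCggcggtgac
Rpl35 (chr2:39005117-39005161, minus strand): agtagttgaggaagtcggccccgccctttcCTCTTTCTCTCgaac
Rpl26 (chr11:68901536-68901580, plus strand): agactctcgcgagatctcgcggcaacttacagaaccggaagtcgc
Rps2 (chr17:24720033-24720077, plus strand): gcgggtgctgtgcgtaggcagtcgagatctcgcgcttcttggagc
Rpsa (chr9:120127736-120127780, plus strand): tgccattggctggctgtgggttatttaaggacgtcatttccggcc
Rpl5 (chr5:107900498-107900542, plus strand): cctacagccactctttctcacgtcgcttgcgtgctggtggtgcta

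Entries were found for 66 of the 87 ribosomal rows. A start of C and at least 4 further pyrimidines was found in 14 of the 66 (21.2%), against 813 of 27025 genes of the whole table (3.01%). The letters CCGGAA, the core bound by ETS factors such as GABP, were found on either strand in the 300 bases around the start of 36 members (54.5%), against 16.7% of all genes. The letters AAGATGG, which match the YY1 site, were found in 10 (15.2%), against 7.28% of all genes. A start annotated a few bases away from the true one hides a tract. Of the called members shown, Rps27, its retrocopy Rps27rt and Rpl35, with the tract, rose. The reads of Rps27 and Rps27rt cannot be told apart with certainty, as described below. Rpl5 and Rpsa, without the tract, also rose, and Rpl26 and Rps2, without it, fell. Rpl22 and Rps27l, which rose too, each have 2 annotated starts in the table, none of them with the tract, and are not shown.

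The comparison of the strains asks which kidney transcripts differ between B6 and BALB/c. Among the 85 tested members, 10 were higher and 7 lower in the BALB/c kidneys at a limma p under 0.05 after Benjamini-Hochberg adjustment over 13317 rows. Over all rows 4.17% were called higher and 4.93% lower, 9.09% in all, against 11.8% and 8.24% of the members. All rows include many of low level, while 82 members had at least 50 CPM. Among the 3503 rows of at least 50 CPM, 232 were called higher and 316 lower. The 2 sets differ in size: the 7 that fell lie between -2.33 and -0.40 on the log2 scale, and the 10 that rose between 0.31 and 0.64. The median fold of the members was 0.17, with 68 of 85 above 0, against a median of 0.002 and 50.4% above 0 over all rows tested, and against -0.02 over the 3503 rows of at least 50 CPM. Levels of the strains did not overlap in 28 members that were higher in BALB/c (32.9%, background 12.5%) and in 9 that were lower (10.6%, background 12.9%). At an unadjusted p under 0.05 the share was 45.9% of the members and 21.3% of all rows. The shares of 4.17% higher and 4.93% lower over all rows are the background for each count of called genes below.

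**Figure D1:**
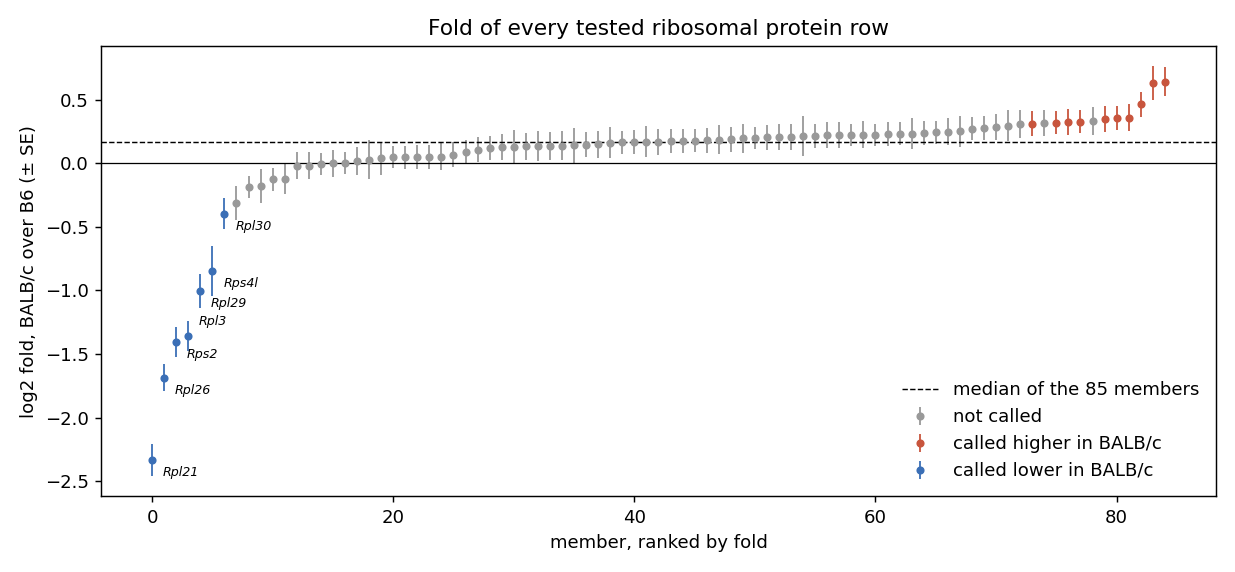
Log2 fold of BALB/c over B6 with its SE for each of the 85 tested rows, ranked from lowest to highest; colours mark rows called by limma and the dashed line is the members' median of 0.17. Most rows lie in a narrow band above 0, and Rpl21, Rpl26, Rps2, Rpl3, Rpl29 and Rps4l stand apart below it.

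Rpl21, a large subunit protein gene (chr5:146832890-146837032, GRCm38), had 156, 162 and 169.8 CPM in the B6 libraries and 29.4, 37.4 and 28.4 CPM in the BALB/c libraries. Every BALB/c library was far below every B6 library. It fell by 2.33 ± 0.13 on the log2 scale (SE, limma adjusted p = 6.9e-12), a BALB/c level of 0.195 times that of B6. Rpl26, a large subunit protein that also binds the p53 message (chr11:68901583-68906989), had 638, 546 and 746 CPM in B6 against 204, 212 and 178 CPM in BALB/c. It fell by 1.69 ± 0.11 (limma adjusted p = 7.95e-11), with no overlap. Its highest BALB/c library held less than its lowest B6 library by a wide margin.

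Rps2, a small subunit protein near the entry of the messenger channel (chr17:24718116-24721929), had 128, 131 and 126 CPM in B6 against 43.4, 48.2 and 52.4 CPM in BALB/c. The B6 libraries agreed within a few CPM, and the log2 fold was -1.40 with an SE of 0.12 (limma adjusted p = 8.6e-09). Rpl3, which contributes to the peptidyl transferase centre (chr15:80077791-80091868), had 201, 174 and 248 CPM in B6 against 78.2, 85.5 and 74.8 CPM in BALB/c. The B6 libraries spread more widely here, yet the lowest of them was above the highest of BALB/c, and the log2 fold was -1.36 with an SE of 0.12 (limma adjusted p = 2.29e-08). Rpl29 (chr9:106429454-106431568) had 75.1, 65.5 and 66.8 CPM in B6 against 35.3, 34.8 and 31.6 CPM in BALB/c, a log2 fold of -1.01 with an SE of 0.13 (limma adjusted p = 1.33e-05). These 5 genes kept their calls under each of the 17 alternatives computed, with an adjusted p of at most 0.0105.

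Rpl30 (chr15:34440505-34443640) fell less, from 77.2, 69.2 and 83.3 CPM in B6 to 55.3, 62.7 and 55.6 CPM in BALB/c. Its log2 fold of -0.40 with an SE of 0.12 (limma adjusted p = 0.047) lost its call under 13 of the 17 alternatives, among them the omission of any library except B6 replicate 2 (adjusted p up to 0.166). Rps4l, an Rps4-like gene that the GENCODE M21 annotation lists as a transcribed processed pseudogene (chr6:148354656-148355598), had 50.7, 43.1 and 41.5 CPM in B6 against 15.9, 31.4 and 29.4 CPM in BALB/c. BALB/c replicate 1 lay further below the other BALB/c libraries than those lay below B6. The log2 fold was -0.85 with an SE of 0.20 (limma adjusted p = 0.00666), and leaving out the first replicate of either strain ended the call (adjusted p up to 0.0716).

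**Figure D2:**
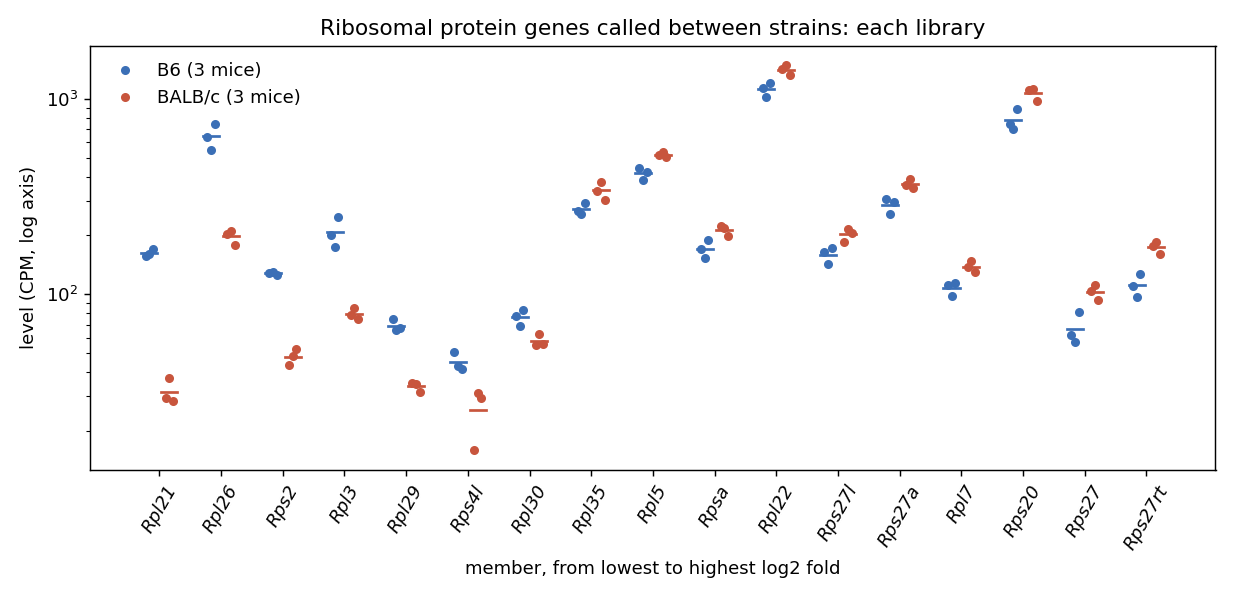
CPM of the 17 called members in each of the 6 libraries on a log axis, with a short line at each strain's mean; genes run from the lowest to the highest log2 fold. The strains do not overlap in any of the 17, and the gap for Rpl21, from 156 to 37.4 CPM, is much wider than for the genes that rose.

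Among small subunit genes that rose, Rps27 (chr3:90212522-90213651), a zinc finger protein of the subunit, had 62.1, 56.8 and 81.5 CPM in B6 against 104, 112 and 93.0 CPM in BALB/c. The log2 fold was 0.63 with an SE of 0.13 (limma adjusted p = 0.00277). Rps27rt, a retrocopy of Rps27 (chr9:114982366-114982739), had 111, 96.5 and 127 CPM in B6 against 177, 184 and 160.0 CPM in BALB/c, a log2 fold of 0.64 with an SE of 0.11 (limma adjusted p = 4.3e-04). The 2 rows moved alike, and all words of 50 bases from the 3′ end of Rps27 (the last 300 bases of its transcript) occur in Rps27rt, so their reads cannot be assigned to either with certainty. Rps27rt held between 61.0% and 64.1% of the summed CPM of the pair in every library. Both rows are counted separately among the members that rose.

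Rps20 (chr4:3831334-3835665), on the head of the small subunit, had 746, 699 and 886 CPM in B6 against 1109, 1124 and 974 CPM in BALB/c. It rose by 0.46 ± 0.10 (SE, limma adjusted p = 0.00277). Rps27, Rps27rt and Rps20 kept their calls whichever library was left out, and each lost it when the variance prior had no trend (adjusted p = 0.112, 0.0722 and 0.151). Rps27a, made as a fusion with ubiquitin, had 307, 258 and 295 CPM in B6 against 362, 388 and 349.9 CPM in BALB/c, a log2 fold of 0.36 with an SE of 0.09 (limma adjusted p = 0.0165). Rpsa, which also serves as a laminin receptor, went from 171 ± 18.6 to 214 ± 12.5 CPM (n = 3, SD), with a fold of 0.32 (limma adjusted p = 0.0488). Of the 31 small subunit genes tested, 4 rose and 1 fell, with a median fold of 0.18.

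Among large subunit genes, Rpl22, an RNA-binding protein needed for T cell development and dispensable for translation in mice, was the most abundant after the stalk gene Rplp1. It had 1135, 1025 and 1211 CPM in B6 against 1415, 1488 and 1321 CPM in BALB/c, a log2 fold of 0.33 with an SE of 0.09 (limma adjusted p = 0.0239). Rpl5, which carries the 5S ribosomal RNA and restrains MDM2 together with Rpl11, had 443, 384 and 421 CPM in B6 against 519, 534 and 502 CPM in BALB/c, a log2 fold of 0.32 with an SE of 0.09 (limma adjusted p = 0.0233). All of its 3′ end words also lie in Fam69a, whose exons overlap its own. Its partner Rpl11 went from 77.6 ± 6.39 to 85.4 ± 2.81 CPM (SD, n = 3), a fold of 0.14 (limma adjusted p = 0.545). Rpl7 had a fold of 0.36 (limma adjusted p = 0.037) and Rpl35 a fold of 0.31 (limma adjusted p = 0.048). Of the 43 large subunit genes tested, 4 rose and 5 fell, with a median fold of 0.17.

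The calls of the genes that rose by less than Rps20 did rested on particular libraries. Leaving out B6 replicate 2, BALB/c replicate 1 or BALB/c replicate 2 ended those of Rps27a (limma adjusted p up to 0.0987) and Rpl5 (up to 0.104). For Rpl22, Rpl7, Rpl35 and Rpsa, leaving out B6 replicate 1 did so as well (up to 0.138, 0.160, 0.254 and 0.189). The call of Rps27l, described with the paralogs, was lost on leaving out B6 replicate 1, B6 replicate 2, BALB/c replicate 2 or BALB/c replicate 3 (adjusted p up to 0.163).

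The stalk proteins Rplp0, Rplp1 and Rplp2 form the arm of the large subunit that recruits elongation factors. Rplp1 had the highest level of all members, with 1987, 1880.0 and 2251 CPM in B6 against 2491, 2602 and 2322 CPM in BALB/c. The strains did not overlap, and the fold of 0.28 ± 0.09 (SE) missed the threshold (limma adjusted p = 0.0696). Rplp2 went from 372 ± 11.8 to 436 ± 23.6 CPM (SD, n = 3), a fold of 0.22 (limma adjusted p = 0.125), and Rplp0 from 345 ± 20.8 to 356 ± 21.2 CPM, a fold of 0.05 (limma adjusted p = 0.829). Their sums ranged from 2572 to 2999 CPM in B6 against from 3106 to 3438 CPM in BALB/c.

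Row levels of the members spanned a wide range within a single particle's parts list. How far reads shared with copies, described below, raised or lowered a row was not tested. After Rplp1 and Rpl22 the highest were Rpl4 (957 ± 117 CPM in B6, 1086 ± 62.1 CPM in BALB/c, SD, n = 3 here and below), Rps20, Rps14 (921 ± 35.9 and 808 ± 36.1 CPM) and Rps9 (866 ± 78.3 and 860.1 ± 33.6 CPM). Rpl37rt, a retrocopy of Rpl37 listed as a transcribed processed pseudogene, followed with 752 ± 45.6 and 864 ± 45.2 CPM. Rpl27a had 707 ± 99.9 and 814 ± 77.8 CPM, Rpl41 661 ± 34.3 and 772 ± 28.2 CPM and Rpl13 618 ± 74.0 and 722 ± 42.7 CPM. Rplp1 was above Rpl22, Rpl22 above Rpl4 and Rpl4 above Rps20 in each of the 6 libraries, while from Rps20 down to Rpl13 the order of neighbours changed between libraries. None of these genes except Rpl22 and Rps20 passed the test between strains. Rps14 was lower in every BALB/c library than in every B6 library, with a fold of -0.19 (limma adjusted p = 0.200).

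At the low end, Rpl12, a base protein of the stalk, had 30.7 ± 1.30 CPM in B6 against 36.0 ± 5.55 CPM in BALB/c, and Rps19bp1 had 34.6 ± 5.31 and 35.0 ± 0.765 CPM (SD, n = 3). Rpl3l, the form of Rpl3 used in heart and skeletal muscle, was at or below 1.71 CPM in every library. Rpl10l and Rpl39l, known from the testis, were at 0 reads in all 6 libraries. A count of 0 covers what was mapped to those rows and allows up to 3 reads in a library.

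Spread between mice had a similar median in members and in other rows above the same floor, though levels were not matched. Among rows of at least 50 CPM, the median coefficient of variation within a strain was 8.36% for 82 members and 8.65% for 3421 other rows. Rpl8 varied least, at 2.52%, and Rps28 most, at 14.6%. Rps28 had 69.5, 71.3 and 89.3 CPM in B6 against 54.2, 71.8 and 58.5 CPM in BALB/c, and the strains overlapped.

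The members deviated together from library to library. Within B6, 74 of 85 members were highest in replicate 3 and 67 were lowest in replicate 2, and within BALB/c 66 were highest in replicate 2 and 63 lowest in replicate 3. The median member lay 0.14 above the strain mean on the log2 scale in B6 replicate 3 and 0.12 below it in B6 replicate 2 (-0.12), where the median of 3421 other rows of at least 50 CPM moved by less than 0.02 (between -0.0153 and 0.009 over the libraries). The 45S row took 12.7%, 13.2% and 15.6% of reads in B6 replicates 1 to 3 and 15.6%, 14.2% and 13.8% in BALB/c, and its part in this pattern was not tested. The summed level of the members was 26503, 24552 and 29429 CPM in B6 against 29618, 31053 and 27873 CPM in BALB/c. The mean was 10% higher in BALB/c (29510 ± 1593 against 26830 ± 2455 CPM, SD, n = 3 each), and B6 replicate 3 lay above BALB/c replicate 3. The 7 members that fell made up 1333 ± 145 CPM of the sum in B6 and 475 ± 32.8 CPM in BALB/c, and without them the sum was 13.9% higher in BALB/c.

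**Figure D3:**
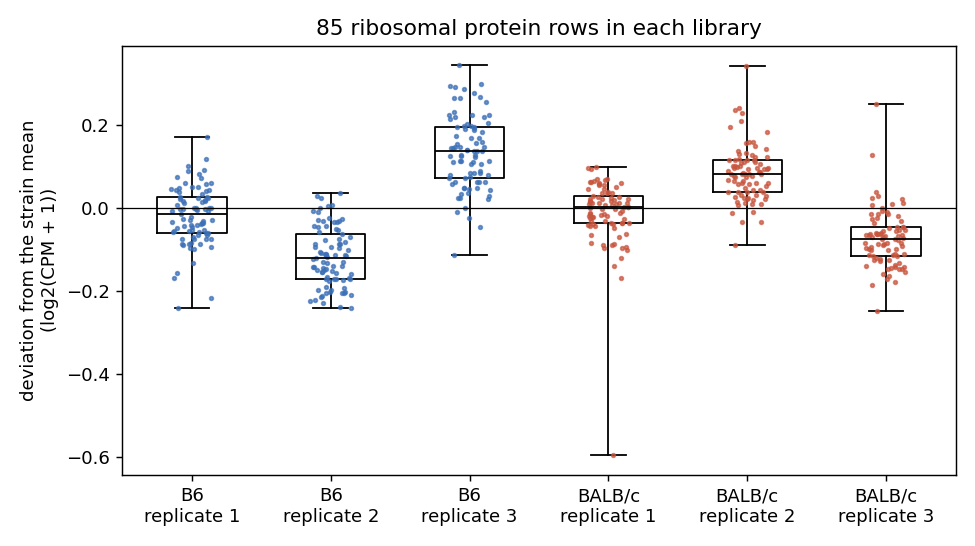
Deviation of each of the 85 tested members from its own strain mean, on the log2(CPM + 1) scale, in each library; boxes span the quartiles and whiskers the full range. Members sit mostly above 0 in B6 replicate 3 and BALB/c replicate 2 and mostly below 0 in B6 replicate 2 and BALB/c replicate 3, and the lowest point of BALB/c replicate 1 is Rps4l.

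The count of members that rose moved when single libraries were left out. It was 19 without B6 replicate 3, 3 without B6 replicate 2 or BALB/c replicate 2, 4 without BALB/c replicate 1, 5 without B6 replicate 1 and 10, as with all libraries, without BALB/c replicate 3, while the count that fell stayed between 5 and 7. Scaling to the total of all reads gave 14 that rose and 6 that fell, and scaling to the total without the 45S row gave 16 and 6.

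Some ribosomal proteins have a second gene whose product can replace them in the particle. Rps27l, a p53-responsive paralog of Rps27, rose from 164, 143 and 172 CPM in B6 to 186, 217 and 206 CPM in BALB/c, a log2 fold of 0.35 with an SE of 0.10 (limma adjusted p = 0.0362). Rpl22l1 had 83.5 ± 5.48 CPM in B6 against 94.0 ± 12.4 CPM in BALB/c (SD, n = 3), Rpl7l1 69.1 ± 6.62 and 61.2 ± 9.19 CPM, and Rpl36al 232 ± 7.53 and 213 ± 6.09 CPM. None of these 3 passed the test (limma adjusted p = 0.480, 0.493 and 0.472). Among the 10 members listed as paralogs or retrocopies, 7 were tested, of which 2 rose and 1 fell.

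Set against its partner in the same library, each of the 4 paralogs that could be compared had a lower ratio in BALB/c. The log2 ratio of Rpl7l1 to Rpl7 was -0.69, -0.63 and -0.59 in B6 and -1.25, -1.03 and -1.23 in BALB/c, a difference of -0.54 with no overlap. That of Rpl36al to Rpl36a was 1.38, 1.53 and 1.19 in B6 and 1.06, 0.85 and 1.10 in BALB/c, a difference of -0.36, also with no overlap. Both had p = 0.10 by a two-sided exact permutation test, the smallest that 3 libraries against 3 allow, and p = 0.20 adjusted over the 4 ratios. The ratios of Rps27l to Rps27 and of Rpl22l1 to Rpl22 differed by -0.28 and -0.16 and overlapped between strains (exact permutation p = 0.20 each). The partners Rpl7, Rps27 and Rpl22 were themselves called higher in BALB/c. Of their 3′ end words, 100% recur in other genes for Rps27 and Rpl36a, 74.5% for Rpl7 and 0% for Rpl22. How far shared reads moved the ratios was not tested.

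**Figure D4:**
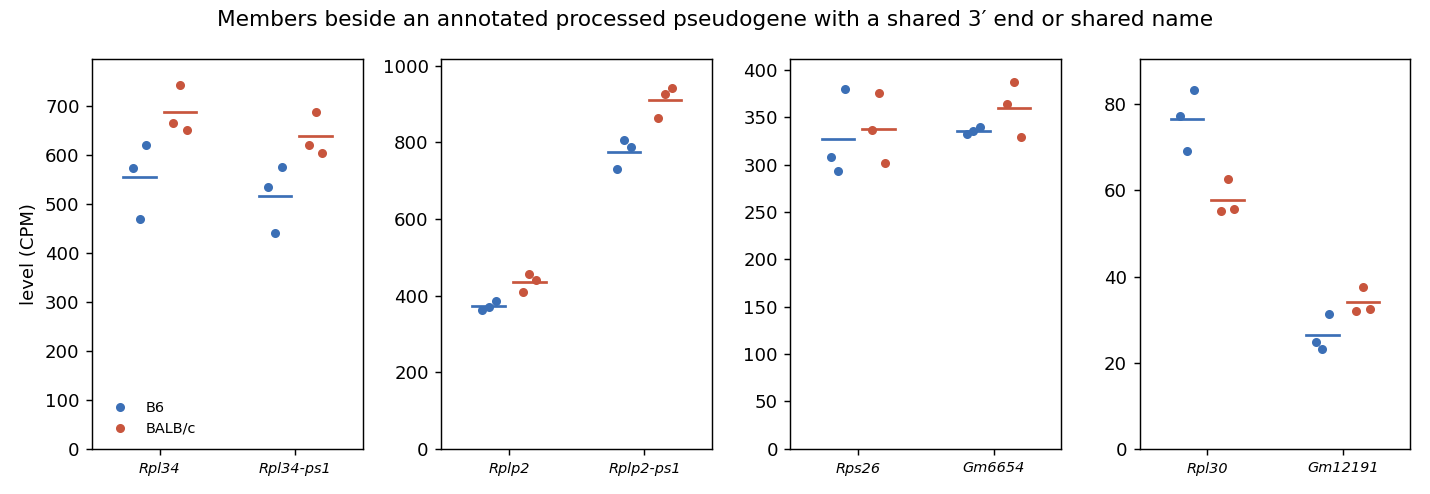
CPM in each library for 4 members (left in each panel) and a pseudogene row of the same files (right), with lines at the strain means and axes that start at 0. Rpl34 and its pseudogene row sit at nearly the same level, the Rplp2 pseudogene row lies above Rplp2, and the Rpl30 and Gm12191 rows move in opposite directions.

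Sequence at the 3′ ends of many members recurs in other genes. Words of 50 bases from the last 300 bases of a transcript were sought in the transcripts of all other genes of GENCODE M21. Over 10% of the words recurred elsewhere for 59 of the 88 members, all of them for 6, and none for 25. Over the whole transcript, 84 of 88 members shared at least 1 word with an annotated pseudogene. Among the members that fell, the number of such pseudogenes was 80 for Rpl21, 78 for Rpl29, 70 for Rps2, 16 for Rpl30, 13 for Rpl3, 12 for Rpl26 and 1 for Rps4l. It was 119 for Rpl7a, which had a fold of -0.02. Rpl21, with the lowest fold, shared 0% of the words in the last 300 bases of its chosen transcript, which holds 1856 bases. It shared 26.2% over the whole transcript, and whether the reads of Rpl21 came from that end was not tested. For the members that fell, the median share of shared words over the whole transcript was 70.8%, for those that rose 62.6%, and for those not called 52.4%. These shares are a description, and a single transcript stands for each gene.

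For 11 members set beside the row of a copy or an overlapping gene, the partner's share of the summed level ranged from 0% for Rpl26 to at most 72.9% for Rpl37, and it lay near that of the gene for Rpl34 and Rps26. Rpl34-ps1, a processed pseudogene, had 536, 440.4 and 576 CPM in B6 against 575, 471 and 621 CPM for Rpl34, and it held between 48.1% and 48.3% of their sum in all 6 libraries. Gm6654, which shares 41.2% of the 3′ end words of Rps26, held between 47.2% and 53.4% of the sum with that gene. The row of Rplp2-ps1 (775 ± 40.7 CPM in B6, 911 ± 41.3 CPM in BALB/c, SD, n = 3) was above that of Rplp2 itself and nearly equal to that of Wdr89 (776 ± 40.8 and 913 ± 40.8 CPM). How reads with several equal alignments were placed is not given in the sources used here. Whether the same reads were counted in several rows was not tested, so these shares describe row levels only.

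For Rpl30 the copy moved the other way. Gm12191, a processed pseudogene on chromosome 11 that shares 80.4% of the 3′ end words of Rpl30, had 24.8, 23.3 and 31.3 CPM in B6 against 32.0, 37.6 and 32.6 CPM in BALB/c, a fold of 0.36 (limma adjusted p = 0.206). Its share of the summed level of the pair was 24.3%, 25.2% and 27.3% in B6 and 36.7%, 37.5% and 36.9% in BALB/c, with no overlap. The log2 ratio of the strains' summed levels was -0.16, against -0.40 for the Rpl30 row alone. Gm10653, which shares 31.4% of the words of Rps2, went from 1.15 ± 0.0743 to 2.21 ± 0.718 CPM (SD, n = 3), and the log2 ratio of the sums of that pair was -1.37. Gm15772, which shares 62.7% of the words of Rpl26, was at or below 0.101 CPM. Both strains were processed with mm10, a B6 genome, and whether BALB/c reads of Rpl21, Rpl26, Rps2, Rpl3 and Rpl29 were lost or placed on copies not analysed here was not tested.

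Other ribosomal proteins have symbols that the rule does not match. Gnb2l1, now named Rack1, a scaffold on the small subunit, went from 421 ± 35.1 to 500.5 ± 20.7 CPM (SD, n = 3), a fold of 0.25 that did not pass the test (limma adjusted p = 0.0917). Fau, a fusion with a ubiquitin-like domain, had 293 ± 27.2 and 335 ± 26.5 CPM, a fold of 0.19 that did not pass either (limma adjusted p = 0.264).

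Translation factors whose messages also carry a TOP tract had folds on the same side of 0 as most members. Of 20 tested, 1 fell, with a median fold of 0.14 and 16 above 0. The one that fell was Eef1g, a subunit of the elongation factor complex that reloads eEF1A, with 114, 118 and 128 CPM in B6 against 71.0, 71.6 and 78.7 CPM in BALB/c, a log2 fold of -0.69 with an SE of 0.11 (limma adjusted p = 1.46e-04). The summed level of this list ranged from 5725 to 6413 CPM in B6 against from 6689 to 6844 CPM in BALB/c. Of 25 other initiation, elongation and release factors tested, 2 fell, with a median of -0.04: Eif5a (-0.37, limma adjusted p = 0.0361) and the cap-binding protein Eif4e (-0.45, limma adjusted p = 0.0438), whose levels overlapped between strains.

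Lists of factors that build or regulate ribosomes had medians at or below 0. Of 44 processing and assembly factors tested, 1 fell, Heatr1 (-0.96 ± 0.28, SE, limma adjusted p = 0.0315), which acts in early small subunit processing, with a list median of -0.03. Of 16 genes of RNA polymerase I and its initiation factors, Taf1b rose from 5.57 ± 2.38 to 16.5 ± 2.67 CPM (SD, n = 3), a fold of 1.48 (limma adjusted p = 0.00148), and Polr1d fell by 0.41 (limma adjusted p = 0.0409). The list median was -0.04. Of 24 genes of the mTORC1 pathway, which controls TOP messages, 1 fell, Mtor (-0.52, limma adjusted p = 0.045), with a median of -0.10. Of 13 genes that rescue stalled ribosomes, 1 fell, Usp10 (-0.50, limma adjusted p = 0.0379), with a median of -0.02. The calls of Eif5a, Eif4e, Heatr1, Polr1d, Mtor and Usp10 each ended without B6 replicate 1 and without BALB/c replicate 2 (limma adjusted p up to 0.265 over all libraries left out), while Eef1g kept its call throughout.

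Mitochondrial ribosomal proteins, which build the separate ribosome of mitochondria, had a median fold of 0.02. Of 77 tested, 3 rose and 2 fell, where 4.17% of all rows were called higher and 4.93% lower. Mrps12 fell by 1.5 (104 ± 16.5 CPM in B6, 35.9 ± 0.937 CPM in BALB/c, SD, n = 3, limma adjusted p = 2.1e-08) and Mrpl16 by 0.83, while Mrps26 rose by 0.59 and Mrpl14 by 0.49, the last lost on leaving out either B6 replicate 1 or BALB/c replicate 2 (limma adjusted p up to 0.0837). The summed level of the list ranged from 5294 to 5537 CPM in B6 against from 5437 to 5534 CPM in BALB/c, and the strains overlapped. Whether the median of the cytosolic members differs from that of this list was not tested.

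Marker lists of other cells moved between the strains as follows, and their part in the members' folds was not tested. The 11 myeloid markers summed to between 124 and 144 CPM in B6 against between 195 and 199 CPM in BALB/c. Of 10 tested, 4 were called higher, among them Csf1r (63.0 ± 10.1 and 118 ± 14.96 CPM, SD, n = 3, limma adjusted p = 4.28e-05). Csf1r kept its call whichever library was left out, while some of the others did not (limma adjusted p up to 0.2). The 11 lymphoid markers in the files summed to between 20.96 and 29.3 CPM in B6 and between 21.5 and 25.2 CPM in BALB/c, with 1 of 3 tested lower, Cd8a, whose call ended on leaving out B6 replicate 1, B6 replicate 3, BALB/c replicate 1 or BALB/c replicate 2 (limma adjusted p up to 0.146). Red cell markers summed to between 4581 and 5601 CPM in B6 against between 2909 and 5303 CPM in BALB/c, with 1 of 7 lower, Hbb-bs, whose call ended on leaving out B6 replicate 1 (limma adjusted p = 0.0513). Markers of dividing cells summed to between 38.4 and 59.0 CPM in B6 and between 25.2 and 39.5 CPM in BALB/c, with a median fold of -0.43 over 7 tested, 2 of them at an unadjusted p under 0.05 and none called by limma after adjustment. Those of adrenal, fat and pancreas, mostly Cela1, summed to between 212 and 293 CPM, with Cyp11b1 and Prss2 at 0 in all libraries.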

How the data were processed

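Whole kidney RNA of 3 B6 and 3 BALB/c mice was read as 3′ end libraries. Bowtie2, bedtools and the mm10 build are named in the labels, per the submitters' processing notes; for their versions, the annotation, the strand and the placing of multiple alignments the entry is: not given in the sources used here. What the authors deposited is log2 values, worked out from the values themselves as log2(CPM + 1) with a further factor per library: undone, they summed to between 980188 and 1043599, and 100% of low values (up to 20 reads) in each library came out whole to within 0.1 read. Recovered reads gave the depth and the limma-voom alternative.

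Rows with a log2 value of at least 1 in at least 3 libraries were fitted with limma 3.58.1 in R 4.3.3, with strain as the sole term and a trend in the variance prior (18.4 prior against 4 residual degrees of freedom), two-sided, with Benjamini-Hochberg adjustment over all rows, and called at an adjusted p under 0.05. The fit was tested on simulated data whose changed rows had larger folds than the members that rose. That test does not cover calls of their size. With so few residual degrees of freedom the p-values lean on that prior. Positions and shared words came from GENCODE M21 (GRCm38), starts from RefSeq. The members and gene lists were chosen with earlier results of these data known. The genes named were the called members, the 10 highest and 5 lowest in level, the most and least variable, the stalk, paralog and ubiquitin fusion genes and up to 4 called genes per list; Rpl34, Rps26, Rpl7a and the copies were named after their values were seen, and a gene that the rule names is not reported here. Alternatives covered pseudocounts, filters, scalings, variance prior, voom, a replicate block and each library left out.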

Additional observations from a re-analysis of the deposited data

How the results depend on the processing

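The counts of all rows called higher and lower, 555 and 656, became 227 and 266 when the variance prior had no trend; with a library left out they lay between 350 and 534 and between 415 and 604. Of the members, 10 rose; the count was 4 with no filter beyond 1 read, 16 with scaling to the total without the 45S row, and 3 to 19 with a library left out. Without that trend limma called 0 members higher, where 9 had an unadjusted p under 0.05 and limma-voom called 13. Among the 26 tested members with at most 10% shared 3′ end words, 3 rose and 1, Rpl21, fell. Over all rows 4.17% were called higher and 4.93% lower. That limit covers the end of a single chosen transcript per gene. Over the whole transcript Rpsa and Rpl21, both among the 26, shared 43.9% and 26.2%. The count of 7 that fell stayed within 5 to 7 under every other alternative. Apart from the replicate block described next, no other setting moved these counts by over 1.5 times.

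Replicate numbers did not pair the libraries: deviations of same-numbered libraries correlated by 0.0115, -0.057 and -0.0844. With a replicate block 4 members rose. The fold of Rps9, -0.0063, was 0.0175, 0.0036 and 0.0286 with total-read, upper quartile and total-without-45S scaling, 0.0668 without B6 replicate 3 and 0.0263 without BALB/c replicate 3, within a range of -0.0497 to 0.0668 over the libraries left out. That of Rps19bp1 was -0.08 without B6 replicate 1 (highest 0.136), and that of Rplp0 -0.0003 without B6 replicate 2 and -0.0005 without BALB/c replicate 2 (highest 0.0857). The cause of these changes was not tested. At this depth Rpl3l, Rpl10l and Rpl39l lie below what can be compared.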
